A study of Mus musculus with 9 samples.

Results

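The respiratory chain of mitochondria is built from the products of 2 genomes, and 92 of the 16299 genes in the deposited table code for its subunits. They were chosen by symbol alone, with no use of measured values. Of these, 13 lie in the mitochondrial genome and 79 in the nucleus. Complex I had 43 members (7 mitochondrial, 36 nuclear), complex II had 4 (all nuclear), complex III had 9 (1 and 8), complex IV had 17 (3 and 14) and complex V had 19 (2 and 17). Symbols that the patterns do not catch, such as Cyc1, Cycs and Ndufab1, were counted separately. Ndufa4 was placed in complex I by its symbol, although it is known as a complex IV subunit, and Cox6c2 is annotated as a processed pseudogene.

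Complexes I to IV pass electrons from NADH and succinate to oxygen, and complexes I, III and IV pump protons across the inner mitochondrial membrane. Complex V, the ATP synthase, uses the returning protons to make ATP. The mitochondrial genome is transcribed in long precursors from both strands, while each nuclear subunit has its own promoter, so the 2 sets of transcripts are made by different polymerases.

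RNA came from melanocytes, the pigment cells of skin, that had been isolated from mouse epidermis by flow cytometry, with 3 libraries in each of 3 groups. The control tail group was made from tail epidermis of Spry1flox/flox mice, in which both copies of Spry1, a feedback inhibitor of receptor tyrosine kinase signalling, carry sites for Cre. The knockout tail and knockout back groups were made from tail and back epidermis of Spry1flox/flox k14-Cre-ERT2 mice, in which the keratin 14 promoter additionally drives Cre-ERT2, a Cre that an oestrogen receptor ligand switches on. That promoter is active in basal keratinocytes, not in the sorted cell type. All 3 groups share the floxed allele, and there was no control back group, so knockout back against control tail mixes genotype with body site. Age, sex and inducer treatment are not given in the labels. Whether replicates are separate animals is also not stated. The p-values therefore measure the spread between these libraries alone, and that spread may be technical. In bulk RNA of this kind, fewer cells of a type and less RNA per cell cannot be told apart.

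Some facts of the whole series touch every result. Recovered totals ran from 45.7 to 67.9 M (mega) counts per library. The deposited values are on a log2 scale, and a shift between the third knockout tail library, the third knockout back library and the other 7 had been removed from each gene. Counts recovered from the values do not contain that removal. The removal took part of the spread between libraries out of the deposited values. The main test fits the 3 groups alone and does not allow for this, so its p-values can be too small. Both shifted libraries are knockout libraries, so the removal can also distort the fitted differences of each knockout group from control tail. With a term for these 2 libraries against the other 7, genes called by limma between the tail groups went from 0 to 10. For knockout back they went from 163 to 545 against control tail and from 244 to 71 against knockout tail. Genes listed at 0 counts numbered 4628 in the first knockout back library and 6127 in the second, and 854 to 1739 elsewhere. Spry1 itself stood at 1510, 1074 and 1285 normalised counts (recovered counts divided by the library's size factor) for control tail, 3590, 1758 and 587 for knockout tail and 2283, 0 and 746 for knockout back. Its groups overlapped and no comparison passed the test, so Spry1 RNA does not separate the labelled genotypes in these cells. The Cre is aimed at keratinocytes, which were not the sorted cell type, although keratinocyte markers were present in these libraries. Of 10 melanocyte markers, 7 had recovered counts, which summed to 653710 to 662962 for control tail, 775897 to 922301 for knockout tail and 875904 to 990274 for knockout back. The other 3, Dct, Pmel and Tyrp1, had deposited values of 19.6 or more in every library. All 7 basal keratinocyte markers were in the table, and their sum ran from 39033 to 100246 for control tail, from 12718 to 325924 for knockout tail and from 39208 to 190386 for knockout back, with the highest value in the third knockout tail library. All 5 red blood cell markers were present too, at 84023 and 105763 in the knockout tail libraries 1 and 2 and at 632 to 25637 elsewhere. The Langerhans cell and myeloid markers (5 of 6 with counts) summed to 138 to 482 for control tail, 517 to 8265 for knockout tail and 4197 to 17489 for knockout back. The 3 endothelial markers were not among the genes of the table. The part of these other cells in the results below was not tested.

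Neighbouring genes of the mitochondrial genome share bases, which bears on how their counts can be read. Both sequences below are printed because a read inside the capitals belongs to either of 2 genes. They come from the GENCODE vM21 transcripts on build GRCm38. mt-Atp8 (chrM:7766-7969, plus strand) ends in 43 bases that are also the start of mt-Atp6 (chrM:7927-8607). mt-Nd4l (chrM:9877-10173, plus strand) ends in 7 bases that open mt-Nd4 (chrM:10167-11544), 1 of the 2 members called below. The capitals mark the shared bases.
mt-Atp8: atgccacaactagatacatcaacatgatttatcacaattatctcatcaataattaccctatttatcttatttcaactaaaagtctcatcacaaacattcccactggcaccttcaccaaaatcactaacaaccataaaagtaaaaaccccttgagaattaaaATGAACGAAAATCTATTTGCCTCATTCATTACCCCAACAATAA
mt-Nd4l: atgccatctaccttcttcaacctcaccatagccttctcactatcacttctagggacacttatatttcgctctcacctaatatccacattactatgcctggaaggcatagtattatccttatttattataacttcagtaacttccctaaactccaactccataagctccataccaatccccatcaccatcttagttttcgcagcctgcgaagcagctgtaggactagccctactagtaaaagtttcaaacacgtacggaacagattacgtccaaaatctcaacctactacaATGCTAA
The capitals of mt-Nd4l hold the start codon of mt-Nd4 and the stop codon of mt-Nd4l in 1 run. mt-Nd6 is the only one of the 13 on the minus strand, and it overlaps mt-Nd5 by 14 bases. Whether the counting used strand is not given in the sources used here, so reads of mt-Nd5 and mt-Nd6 there cannot be told apart. The other overlaps lie on 1 strand, and no strand setting would part their reads.

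NRF1, ETS factors and YY1 are known to act at promoters of nuclear respiratory genes. RefSeq promoter windows (GRCm38.p6, 250 bases before to 50 after the start site) were given for 66 of the 79 nuclear members. Each motif was searched as 1 exact run of letters on both strands. The NRF1 letters, a palindrome, were in the windows of 5 of these 66 genes (7.58%), against 1.07% of 27025 genes with a window. The ETS letters CCGGAAGT were also in 5 (7.58%, against 4.31%). The YY1 letters were in 4 (6.06%, against 0.755%), and all 4 runs began 24 to 35 bases after the start site. The 27025 genes were not limited to those of the deposited table, and these shares were given no test. The 5 NRF1 windows are shown because 1 is that of Uqcrc1, which had the lowest adjusted p of the 92 members in knockout back against control tail, and 1 YY1 window is shown for its letters. Each line gives 30 bases in the gene's own direction, and the capitals are the run of letters searched. Their positions are chr15:102671070-102671099 (minus) for Atp5g2, chr5:108434430-108434459 (minus) for Atp5k, chr5:115349101-115349130 (minus) for Cox6a1, chr17:56717692-56717721 (plus) for Ndufa11, chr9:108936668-108936697 (plus) for Uqcrc1 and chr6:126849096-126849125 (minus) for Ndufa9, which holds the YY1 run.
Atp5g2: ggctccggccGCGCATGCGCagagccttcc
Atp5k: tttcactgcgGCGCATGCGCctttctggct
Cox6a1: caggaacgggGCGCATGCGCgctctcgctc
Ndufa11: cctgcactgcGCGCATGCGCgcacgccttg
Uqcrc1: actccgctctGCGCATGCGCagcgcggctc
Ndufa9: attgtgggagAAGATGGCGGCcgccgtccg
A match is a run of letters and not a measured binding site. The 5 genes with the NRF1 letters did not share a direction. In knockout back against control tail their log2 differences were -0.09 for Atp5g2, 0.69 for Atp5k, 0.05 for Cox6a1, -0.04 for Ndufa11 and -0.81 for Uqcrc1, and none passed the test.

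Per kilobase of transcript, the mitochondrial genes stood above the nuclear ones. The mean normalised count per kilobase over the 9 libraries had a median of 131080 over the 13 mitochondrial genes, from 8140 for mt-Nd3 to 326210 for mt-Atp6. Over the 79 nuclear genes it had a median of 17705, from 251.5 for Cox7a1 to 60113 for Cox6a1. The levels of the 2 sets overlapped: mt-Nd3, mt-Nd5 (16733), mt-Nd6 (19325), mt-Nd4l (24325), mt-Nd2 (25122) and mt-Nd4 (44416) lay within the nuclear range. The other 7 mitochondrial genes, mt-Co1, mt-Co2, mt-Co3, mt-Cytb, mt-Atp6, mt-Atp8 and mt-Nd1, lay above the highest nuclear gene. Among nuclear genes the median level per kilobase was 13051 for complex I, 10062 for complex II, 29129 for complex III, 21086 for complex IV and 24360 for complex V. The lowest level of a complex I gene was that of Ndufs1 (2797), which codes for the largest iron-sulphur subunit.

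As shares of all recovered counts, the 2 sets of genes behaved differently over the 9 libraries. The 13 mitochondrial genes took 2.21%, 1.99% and 2.80% for control tail, 1.43%, 1.67% and 1.73% for knockout tail, and 3.00%, 3.02% and 1.92% for knockout back. Every knockout tail library was below every control tail and every knockout back library, while control tail and knockout back overlapped. Group means were 2.33% ± 0.418, 1.61% ± 0.160 and 2.65% ± 0.631 (SD, n = 3). The 79 nuclear genes took 2.52%, 2.78% and 2.59% for control tail, 2.46%, 2.56% and 1.41% for knockout tail, and 2.56%, 2.46% and 1.37% for knockout back. Here 7 libraries lay close together, between 2.46% and 2.78%, and the third knockout tail library and the third knockout back library lay far below them. The ratio of mitochondrial to nuclear counts was 0.874, 0.716 and 1.08 for control tail, 0.581, 0.650 and 1.23 for knockout tail, and 1.17, 1.23 and 1.40 for knockout back. It was below that of every control tail library in the knockout tail libraries 1 and 2 and above it in the third. Dct, Pmel and Tyrp1 are not in these totals because their counts were too high to resolve. These shares are sums over chosen genes and were given no test.

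**Figure D1:**
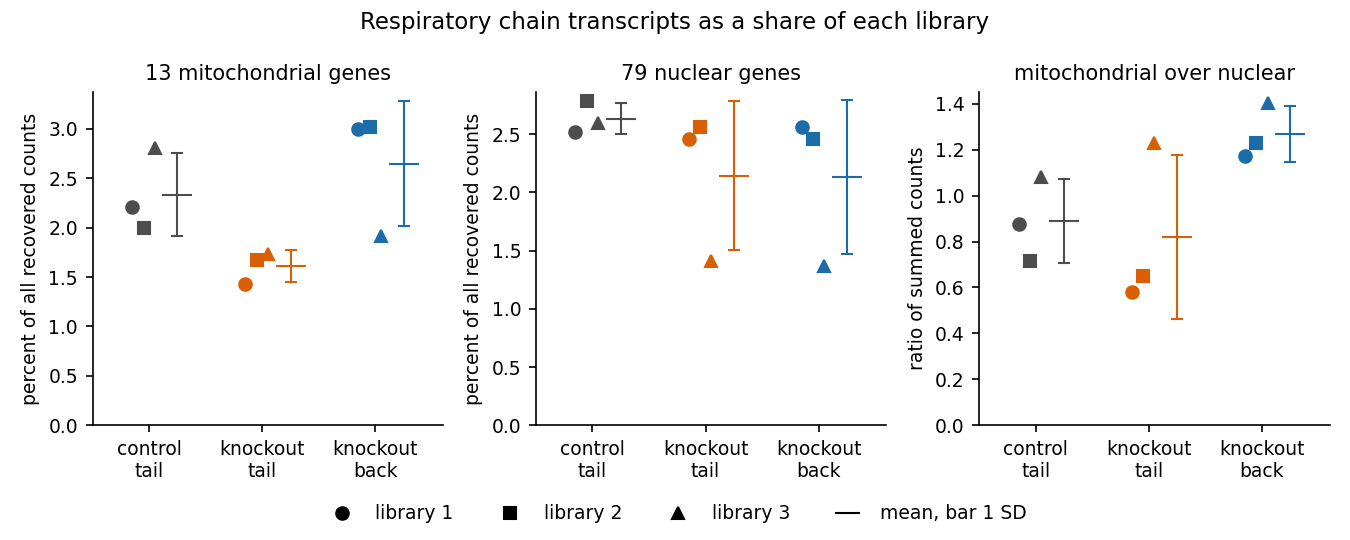
Share of recovered counts taken by the 13 mitochondrial genes (left, percent) and the 79 nuclear genes (middle, percent) and their ratio (right), by group. Each symbol is 1 library, and the dash and bar are the mean and 1 SD of 3 libraries. Knockout tail is lowest in the left panel (1.43% to 1.73%), and the third knockout tail and back libraries (triangles) sit at 1.41% and 1.37% in the middle panel, below the other 7.

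The low nuclear share of those 2 libraries went with transcript length. Each gene was compared between those 2 libraries and the other 7 on the deposited log2 scale, before the shift was removed. That scale is a variance-stabilising curve, on which differences at low counts are smaller than in log2 counts. Of the 77 protein-coding nuclear members with a mean of at least 100 normalised counts, 73 were lower in the 2 libraries. These 77 are all but Cox7a1 and the pseudogene Cox6c2, and their median difference was -1.04. The range went from -3.73 (Atp5k, the e subunit of the ATP synthase, 371 bases) to 0.49 (Ndufs1, 2590 bases). In normalised counts Atp5k stood at 392 and 437 in the 2 libraries and at 6436 to 21576 in the other 7. Of the mitochondrial genes 11 of 13 were lower, with a median of -0.36. By length, nuclear members under 600 bases had a median of -1.58 (26 genes) and those of 1500 to 2500 bases -0.25 (11 genes). Other protein-coding genes had medians of -0.88 and 0.17 in the same 2 classes, so short genes in general were lower in these libraries. Mitochondrial members under 600 bases had a median of -0.78 (4 genes), and differences between these sets of genes were not tested. Across genes, Spearman's rho with length was 0.68 over the 77 nuclear members, 0.71 over the 13 mitochondrial genes and 0.29 over 11365 other protein-coding genes. These are descriptions across genes of the same 9 libraries, and genes are not independent replicates. These 77 nuclear members have a median length of 732 bases, against 2798 for the other genes. The shift removal raised most of them in these 2 libraries, so results on nuclear members differ between the deposited values and the counts. Because both libraries are knockout libraries, the set of libraries and genotype are partly confounded.

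**Figure D2:**
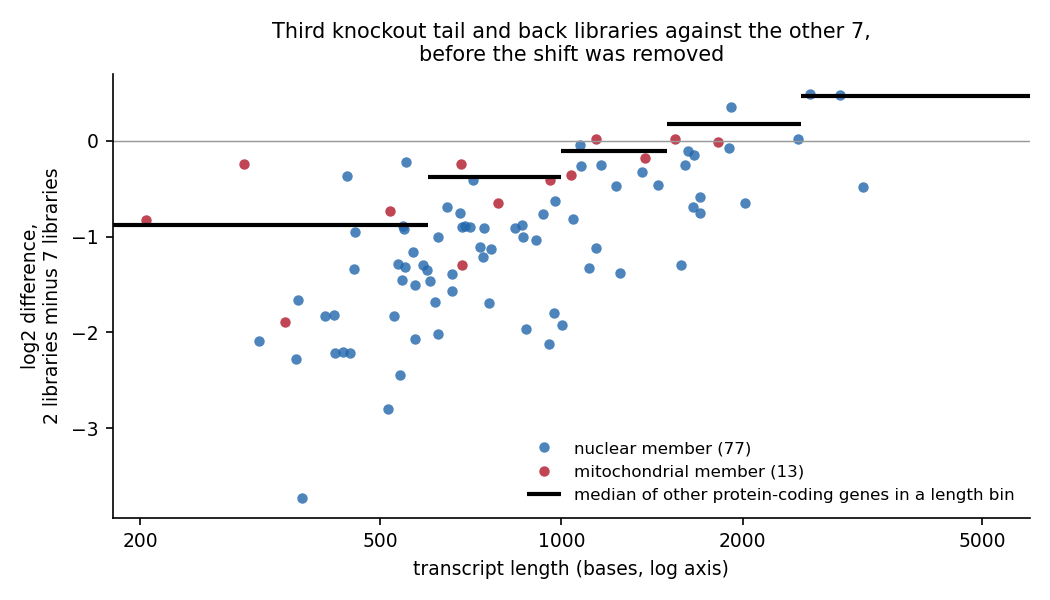
Difference between the third knockout tail and back libraries and the other 7 (vertical) against transcript length in bases (horizontal, log axis). Differences are on the deposited log2 scale before the shift was removed, where those at low counts are smaller than in log2 counts. Points are 77 nuclear and 13 mitochondrial members, and black bars are medians of other protein-coding genes in each length class. Members under 600 bases lie furthest below 0, with a nuclear median of -1.58.

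All 13 mitochondrial genes had means below control tail in knockout tail, and none passed the test. Their median log2 difference was -0.50, against -0.15 for the 79 nuclear members and -0.05 for all genes. The median deposited level of the 13 was 15.518, 15.746 and 15.837 for control tail and 15.115, 15.15 and 15.645 for knockout tail, with overlap. Between replicates this library median had an SD of 0.28, against 0.08 for the nuclear members. The 13 genes were measured in the same 3 libraries a group and are not independent replicates. In limma with Benjamini-Hochberg adjustment over all genes, 0 of the 92 members passed an adjusted p of 0.05, as did 0.0% of the 16299 genes. At an unadjusted p under 0.05 there were 9 members, 5 mitochondrial and 4 nuclear, beside 814 of the 16299 genes, and a limma-voom fit of the recovered counts called 0 as well. In normalised counts, 11 of the 13 mitochondrial genes were lower in every knockout tail library than in any control tail library, against 9.31% of all genes in that direction. In the deposited values this held for 5 of 13, against 9.37%. Of the 79 nuclear members, 22 were lower in this way in counts and 1 higher, where 9.7% of all genes were higher. In the deposited values 14 were lower and 2 higher, where 6.44% of all genes were higher. Adding the set of libraries to the limma model left 0 members past the threshold, with 0.0614% of all genes called, and gave mt-Nd4l a positive sign (0.03). The red blood cell markers stood at 84023 and 105763 in the knockout tail libraries 1 and 2 against 632 to 9216 in control tail, and their part in these differences was not tested.

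Among the complex I genes, which code for the membrane arm that pumps protons, mt-Nd1 was at 127552, 130076 and 177592 normalised counts for control tail, 105857, 113606 and 90499 for knockout tail and 148127, 127767 and 107919 for knockout back. mt-Nd2 was at 21382, 22620 and 35957 for control tail, 16938, 12144 and 16302 for knockout tail and 37439, 48307 and 23599 for knockout back. In both genes the knockout tail counts lay below all control tail counts. The smallest of the 7 by level, mt-Nd3, was at 3768, 3039 and 2530, then 1339, 1735 and 308, then 5276, 6680 and 822 in the same order of groups. Its 2 lowest values, 308 and 822, are from the third knockout tail and back libraries, and its transcript is 348 bases. mt-Nd4l was at 7429, 4534 and 4251 for control tail, 3963, 5282 and 5066 for knockout tail and 18404, 9965 and 6128 for knockout back, and control and knockout tail overlapped. mt-Nd5 was at 26878, 22284 and 41905, then 24231, 18980 and 26992, then 42025, 39905 and 31488. mt-Nd6, alone on the other strand, was at 9564, 7706 and 17289, then 7393, 5161 and 6027, then 14605, 16576 and 5944. Both were lower in mean in knockout tail than in control, with overlap for mt-Nd5 and narrowly none for mt-Nd6 in counts (7393 against 7706).

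For complex III, mt-Cytb codes for cytochrome b, which binds the haems of the electron path. It was at 159411, 156690 and 219431 normalised counts for control tail, 128745, 122756 and 155040 for knockout tail and 229588, 248391 and 202104 for knockout back. The knockout tail counts were below those of both other groups without overlap, by a narrow margin against control tail (155040 against 156690). For complex IV, mt-Co1 codes for the catalytic subunit that holds the oxygen-reducing site. Its counts were 242066, 251741 and 324880 for control tail, 156258, 191533 and 237643 for knockout tail and 369810, 333004 and 285554 for knockout back. mt-Co2, which takes electrons from cytochrome c, was at 104891, 85698 and 88254, then 55155, 79876 and 38973, then 162527, 162203 and 40821. mt-Co3 was at 117394, 102326 and 150535, then 66974, 86054 and 68062, then 169510, 231696 and 89117. In all 3 genes knockout tail lay below control tail without overlap, narrowly for mt-Co1 (237643 against 242066). For mt-Co2 the third knockout back library fell among the knockout tail values. For complex V, mt-Atp6 codes for the subunit that carries protons to the rotating ring. It was at 223602, 201017 and 297045, then 118408, 173165 and 187807, then 303099, 309090 and 186093. mt-Atp8, its overlapping neighbour, was at 60754, 88118 and 87459, then 30981, 44187 and 37971, then 84816, 62966 and 31526. The third knockout back library had fewer counts of both genes than any control tail library.

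**Figure D3:**
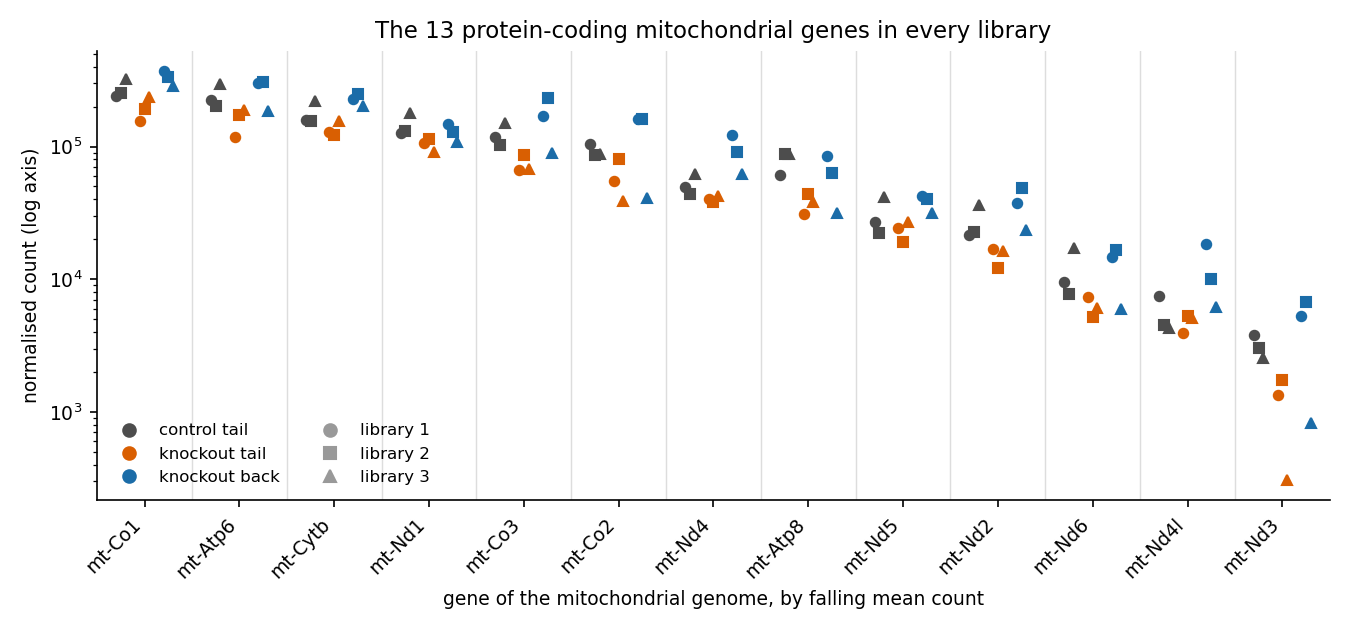
Normalised counts (vertical, log axis) of the 13 mitochondrial genes (horizontal, ordered by falling mean count) in all 9 libraries. Colours are groups and symbols are library numbers. Knockout tail lies below control tail without overlap in 11 of the 13 genes, and the third knockout tail and back libraries are far below the others for mt-Nd3 (308 and 822).

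The largest differences between the tail groups were modest and uncertain. The 4 lowest were Cox7a2l, known as a factor that helps complexes III and IV join, at -0.80 (SE 0.28, limma adjusted p = 0.81), mt-Atp8 at -0.77 (SE 0.29), mt-Nd3 at -0.69 (SE 0.33) and mt-Nd2 at -0.65 (SE 0.28). Cox7a2l did not overlap between the tail groups, with 10149, 13264 and 6540 normalised counts in control tail and 4902, 5326 and 5472 in knockout tail. The 4 highest were Sdhd, a membrane anchor of complex II, at 0.41 (SE 0.21), Atp5g3 at 0.39 (SE 0.22), Atp5b, the catalytic beta subunit of the ATP synthase, at 0.35 (SE 0.20) and Ndufa10 at 0.30 (SE 0.21). None of these 8 passed the test. By complex, the nuclear medians were -0.19 for complex I (8 of 36 positive), 0.06 for complex II (3 of 4), -0.08 for complex III (3 of 8), -0.11 for complex IV (1 of 14) and -0.10 for complex V (5 of 17). With the removed shift put back, the nuclear median was -0.57 and 9 of 79 were positive. Without the second control tail library the nuclear median was -0.05.

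Between the sites, all 13 mitochondrial genes had higher means in knockout back than in knockout tail. Their median log2 difference was 0.84, against 0.14 for the nuclear members and -0.18 for all genes. By limma with Benjamini-Hochberg adjustment, 2 of the 92 members were higher past the threshold and 0 lower. The rule called 1.5% of all genes, 0.411% higher and 1.09% lower. The 2 members were mt-Nd4 and Cox7c, 1 from each genome. With the set of libraries added to the model 0.436% of all genes and 0 members were called. At an unadjusted p under 0.05 there were 31 members, 11 of them mitochondrial, beside 3474 of the 16299 genes. Leaving out the third knockout back library gave 16 members (14 higher, 2 lower) among 1972 genes called. Leaving out any other single library gave 0 members among 3 to 111 genes called. This comparison shares the knockout tail libraries with the one before it, so the 2 sets of differences are not independent.

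mt-Nd4 (ENSMUSG00000064363.1, chrM:10167-11544, a single coding exon) codes for a proton-pumping subunit of complex I. It had 49380, 43880 and 61715 normalised counts for control tail, 39890, 38158 and 42718 for knockout tail and 122793, 90362 and 61945 for knockout back. All knockout back counts were above all tail counts, the third by a narrow margin over the highest control. The log2 difference between back and tail was 1.12 (SE 0.22, limma adjusted p = 0.0495), and over the alternatives the adjusted p ran from 0.014 to 0.38. With the set of libraries in the model the limma adjusted p was 0.081. Between the third knockout libraries alone, which form the smaller set, the log2 difference was 0.54. Without the first and second knockout back libraries it was 0.74, and the call was lost. Among the 7 libraries that exclude the third knockout tail and back ones it was 1.42, and the call held.

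Cox7c (ENSMUSG00000017778.14, chr13:86044816-86046904, minus strand) codes for a small accessory subunit of complex IV, the cytochrome c oxidase. Its deposited values were 12.68, 12.72 and 12.74 for control tail, 12.28, 12.47 and 12.37 for knockout tail and 13.38, 13.30 and 13.22 for knockout back. The 3 groups did not overlap, with knockout tail lowest and knockout back highest. The log2 difference between back and tail was 0.92 (SE 0.16, limma adjusted p = 0.039), and over the alternatives the adjusted p ran from 0.0046 to 0.71. With the set of libraries in the model the limma adjusted p was 0.076. In normalised counts Cox7c was at 14848, 15266 and 15482, then 11076, 12763 and 1792, then 24321, 22991 and 3593. In counts the groups therefore overlapped through the third libraries. Between those 2 libraries alone the log2 difference was 1.003 in counts.

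**Figure D4:**
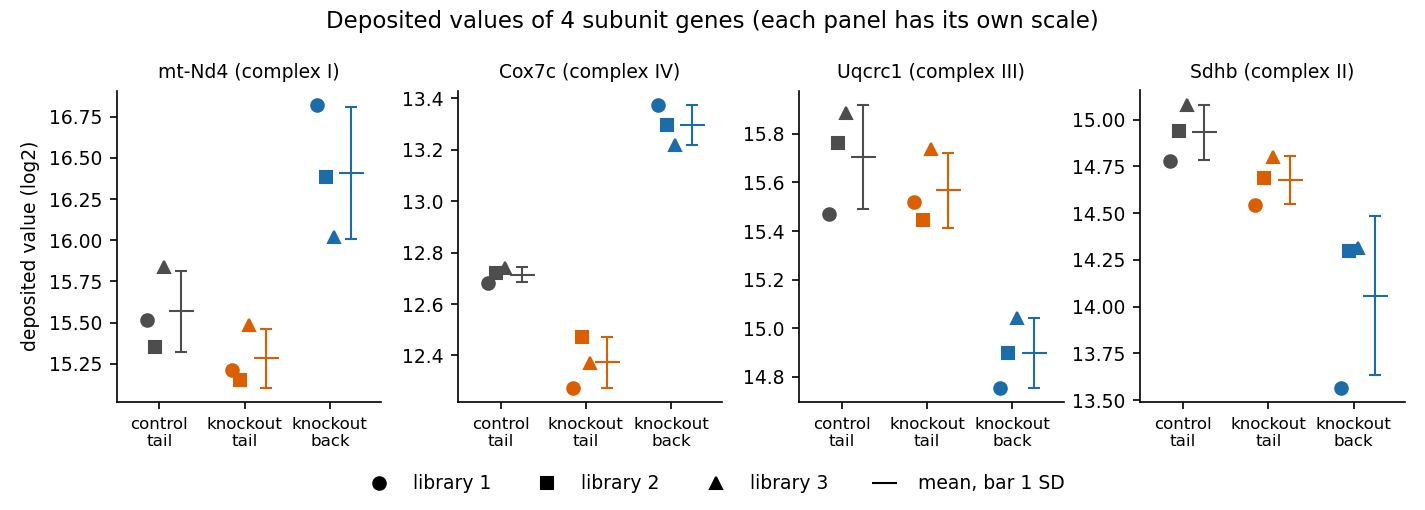
Deposited log2 values of mt-Nd4, Cox7c, Uqcrc1 and Sdhb by group, with 1 symbol per library and the mean and 1 SD of 3 libraries. Each panel has its own vertical scale. mt-Nd4 and Cox7c are highest in knockout back (16.02 to 16.82 and 13.22 to 13.38), while Uqcrc1 and Sdhb are lowest there (14.76 to 15.04 and 13.57 to 14.31).

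The other mitochondrial genes ranged from 0.30 for mt-Nd1 to 1.40 for mt-Nd3, and their adjusted p-values in limma missed the threshold. In the deposited values, 10 of 13 mitochondrial genes were higher in every knockout back library than in any knockout tail library, against 7.53% of all genes. In counts 7 of 13 were, against 4.55%. Among the nuclear members 26 of 79 were higher and 6 lower in this way in the deposited values, where 15.6% of all genes were lower. In counts 1 was higher and 4 were lower, where 10.4% of all genes were lower. Between the third knockout back library and the third knockout tail library alone, 10 of the 13 mitochondrial genes were higher, with a median of 0.26. Of the nuclear members 59 of 79 were higher (median 0.19), and of all genes 7853 of 16296 (median 0). Without the 2 back libraries of many genes at 0 counts the median over the 13 was 0.50, and without the third knockout tail and back libraries it was 1.27. All 13 were positive in both of these fits. The Schwann cell markers (2 of 3 with counts) summed to 8477 to 14777 in knockout tail and 19266 to 51015 in knockout back, without overlap. The Langerhans cell and myeloid markers summed to 517 to 8265 and 4197 to 17489, with overlap. Their part in the differences was not tested.

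The mitochondrial ribosomal RNAs, which are no members, were also highest in those 2 libraries. mt-Rnr2 was at 256809, 283019 and 344063 normalised counts for control tail, 187302, 200222 and 135725 for knockout tail and 685026, 684671 and 189452 for knockout back. Its log2 difference between back and tail was 1.37 (limma adjusted p = 0.039), and that of mt-Rnr1 was 1.47 (adjusted p = 0.049). Both rRNA genes together took 1.58% and 1.53% of counts in the first and second knockout back libraries and 0.297% to 0.740% in the other 7. These are the 2 libraries with many genes at 0 counts, and the part of that in the mitochondrial values was not tested.

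The composition within the 13 also differed between the groups. mt-Co1 held the largest part of the mitochondrial subunit counts in every library, between 19.7% and 26.6%, and the third knockout tail (26.0%) and back (26.6%) libraries had the highest values. mt-Nd4 held 4.28%, 3.92% and 4.09% for control tail, 5.28%, 4.28% and 4.68% for knockout tail and 7.19%, 5.36% and 5.77% for knockout back. Its knockout back values were above all others, so mt-Nd4 was higher there also relative to the other mitochondrial genes. mt-Nd1 held 11.1%, 11.6% and 11.8% for control tail, 14%, 12.7% and 9.91% for knockout tail and 8.67%, 7.57% and 10.1% for knockout back. Here the order of groups turned, with knockout back below control tail. mt-Atp8 held 5.26%, 7.87% and 5.797% for control tail, 4.10%, 4.95% and 4.16% for knockout tail and 4.97%, 3.73% and 2.94% for knockout back. It was lower in every knockout library than in every control library. These parts were given no test.

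By complex, back exceeded tail most in the mitochondrial members of complex I (median 1.07) and complex IV (0.88). Next came mt-Cytb of complex III (0.74) and the 2 genes of complex V (0.64). Without the 2 back libraries of many genes at 0 counts, the medians were 0.50 (complex I), 0.55 (complex IV) and 0.36 (complex V). Between the third knockout libraries alone they were 0.27, 0.26 and -0.14, with mt-Cytb at 0.38. The order of the complexes thus depended on the libraries used. In the main fit the nuclear medians were 0.13 for complex I (22 of 36 positive), -0.17 for complex II (1 of 4) and 0.15 for complex III (5 of 8). They were 0.37 for complex IV (11 of 14) and 0.12 for complex V (13 of 17). In each of the 4 complexes with both kinds of gene the mitochondrial median of this fit was above the nuclear one. Between the third knockout libraries alone this held for complexes I and III. There the nuclear medians of complex IV (0.34) and complex V (0.19) were above the mitochondrial ones. Complex II, which has no mitochondrial subunit, was the only complex with a negative nuclear median.

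Against control tail, knockout back held genes that differed in both directions, and none of the 92 passed the test. limma called 1.0% of all genes, 0.387% higher and 0.614% lower, and 0 members, with 16 members and 4255 of the 16299 genes at an unadjusted p under 0.05. limma-voom called 1, Uqcrc1, among 322 of 16296 genes. This comparison shares its control tail libraries with the first comparison and its knockout back libraries with the second. The mitochondrial median was 0.36 (11 of 13 positive), the nuclear median 0.03 (42 of 79) and the median of all genes -0.23. With the removed shift put back the nuclear median was -0.37 with 14 of 79 positive, so the direction of the nuclear members in this comparison depends on that step. In the deposited values 2 mitochondrial and 13 nuclear members were higher without overlap, against 8.68% of all genes, and 5 nuclear members were lower, against 20.8%. In counts, 1 mitochondrial and 0 nuclear members were higher, against 7.41% of all genes, and 9 nuclear members were lower, against 15.6%.

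Uqcrc1 (ENSMUSG00000025651.14, chr9:108936633-108949623, plus strand) codes for a large core subunit of complex III. It had 57133, 70030 and 76509 normalised counts for control tail, 59147, 56141 and 42511 for knockout tail and 34663, 38260 and 26055 for knockout back. Every knockout back library was below every tail library, in counts and in deposited values. The log2 difference from control tail was -0.81 (SE 0.15, limma adjusted p = 0.053), and with the set of libraries in the model it was -0.89 (adjusted p = 0.036), a fit that called 3.34% of all genes. Over the alternatives the adjusted p ran from 0.015 to 0.49. It was lower in knockout back than in knockout tail by a log2 difference of -0.67 (adjusted p = 0.065), and by -0.71 between the third libraries alone.

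A further pair of complex III subunits had low values in knockout back without passing the test. Uqcrfs1, the Rieske iron-sulphur protein, was at 8863, 11337 and 11670 for control tail, 9747, 12571 and 7257 for knockout tail and 5642, 3906 and 6235 for knockout back, with a log2 difference of -0.86 from control tail (SE 0.26, limma adjusted p = 0.089). Uqcr10, a small subunit, was at 23403, 29209 and 27120, then 20622, 19827 and 4347, then 14895, 12418 and 3692, with -0.78 (SE 0.19, adjusted p = 0.059). Other nuclear members of complex III named by level did not share this. Uqcrb was at 14891, 16963 and 12616, then 13858, 17305 and 5271, then 24594, 18014 and 7977, with 0.48 (SE 0.19). Uqcr11 was at 22438, 29986 and 35143, then 18258, 18830 and 4633, then 36454, 22393 and 5496, with -0.03 (SE 0.24). Uqcrc2, the second core subunit, was at 13061, 12887 and 10959, then 12106, 12163 and 11889, then 17217, 9855 and 11651, with 0.06 (SE 0.21). Of the 2 core subunits, Uqcrc1 was below its tail values in knockout back and Uqcrc2 overlapped them, and the difference between them was not tested. Per kilobase Uqcrc1 stood at 30950 and Uqcrc2 at 6551 over all libraries.

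Complex II links the chain to the tricarboxylic acid cycle, and its 4 genes had differences of both signs. Sdhb (ENSMUSG00000009863.14, chr4:140961203-140979193, plus strand), the iron-sulphur subunit, was at 40907, 45748 and 50293 normalised counts for control tail, 34612, 38294 and 18840 for knockout tail and 17354, 29089 and 13330 for knockout back. Its knockout back counts were below all control tail counts, and in the deposited values below all tail values. The log2 difference from control tail was -0.87 (SE 0.21, limma adjusted p = 0.059). Sdha, the flavoprotein, was at 12349, 14990 and 14148, then 13945, 14355 and 19370, then 26485, 11555 and 22762. Sdhc, an anchor, was at 18160, 21915 and 14160, then 19680, 21420 and 11877, then 16846, 12022 and 12821. The other anchor, Sdhd, was at 14308, 16831 and 14895, then 21212, 20883 and 13892, then 16288, 28407 and 12594. All 3 overlapped between knockout back and control tail, with log2 differences of 0.30 (SE 0.26), -0.20 (SE 0.22) and 0.38 (SE 0.21).

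The 4 members with the largest positive differences between knockout back and control tail were mt-Nd4l at 1.01 (SE 0.35, limma adjusted p = 0.12), Ndufb2 at 0.95 (SE 0.27, adjusted p = 0.077), mt-Nd4 at 0.84 (SE 0.22, adjusted p = 0.064) and Cox6c at 0.75 (SE 0.19, adjusted p = 0.061). Ndufb2, an accessory subunit of complex I, was at 3537, 4475 and 4115, then 2585, 3421 and 1556, then 7626, 11314 and 3081. Cox6c, an accessory subunit of complex IV, was at 12982, 15389 and 10059, then 10902, 11333 and 3527, then 22680, 22568 and 6764. For both, the first and second knockout back libraries were above every other library and the third was below all control tail libraries in counts. In the deposited values, both were higher in knockout back than in either tail group without overlap. The lowest difference was that of Cox6b2, the isoform known from testis, at -1.05 (SE 0.68), which rested on a second knockout back library with 0 counts.

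Of the remaining complex I genes named by level, Ndufa2 was at 18847, 22838 and 20605 normalised counts for control tail, 15447, 18122 and 3770 for knockout tail and 23713, 18181 and 4871 for knockout back. Ndufa1 was at 10739, 11722 and 11980, then 8812, 9945 and 2902, then 20947, 18680 and 3612. Ndufb9 was at 23113, 28482 and 23366, then 19290, 24014 and 11636, then 16237, 23355 and 11813. All 3 are accessory subunits, and each had its lowest counts in the third knockout tail and back libraries. Ndufs1, a core subunit with a long transcript, was at 8121, 5019 and 6885, then 8011, 8642 and 7594, then 4582, 5091 and 11253, and its highest count was in the third knockout back library. None of the 4 passed the main test in any comparison. Ndufa1 was called between back and tail without the third knockout back library and without the third library of both knockout groups. Without the third knockout back library it was also called between knockout back and control tail.

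In complex IV the nuclear genes include isoform pairs whose use differs between tissues. Cox6a1 was at 37502, 46375 and 37108 normalised counts for control tail, 36739, 40942 and 13089 for knockout tail and 41814, 40807 and 14544 for knockout back, and no other Cox6a isoform was among the members. Cox6b1 took 93.7% to 97.3% of the Cox6b counts per kilobase for control tail, 92.0% to 97.0% for knockout tail and 93.8% to 100% for knockout back, the rest being Cox6b2. Cox8a was at 25378, 26976 and 23524, then 26066, 31640 and 10346, then 29483, 22597 and 10278. Among the Cox7a genes, Cox7a2 took 54.4% to 84.0% per kilobase over the 9 libraries and Cox7a2l 13.4% to 45.3%. The lowest Cox7a2 parts, 62.9% and 54.4%, were in the third knockout tail and back libraries. Cox7a1, the isoform of heart and skeletal muscle, was at 0, 113 and 37, then 0, 79 and 15, then 626, 0 and 21. Of 5 skeletal muscle markers 2 were in the table, with a summed level of 6 to 974. Cox6c2, the pseudogene, was at 38 to 671 counts and took 2.45% to 7.30% of the Cox6c counts per kilobase. Its sequence resembles that of Cox6c, so reads could be split between them and both values are uncertain. Of Cox4i only Cox4i1 was found, at 35396, 45586 and 38537, then 37690, 38459 and 19035, then 39806, 49490 and 23745.

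Among the nuclear genes of complex V those of the alpha and beta subunits had the most counts. Atp5a1, the alpha subunit, was at 59205, 75953 and 46210 normalised counts for control tail, 73233, 74361 and 66153 for knockout tail and 50544, 45436 and 54450 for knockout back. Atp5b was at 84613, 91897 and 58292, then 108014, 99889 and 110442, then 83367, 59759 and 98582. Both were lower in every knockout back than in every knockout tail library, with log2 differences of -0.50 (SE 0.18, limma adjusted p = 0.16) and -0.42 (SE 0.20, adjusted p = 0.26). These are long transcripts for the complex, and the third libraries were not low for them. The 3 small membrane subunits named by level had positive differences. Atp5k was at 8027, 9553 and 10882, then 8529, 6436 and 392, then 15507, 21576 and 437, with a log2 difference of 0.86 (SE 0.32) between back and tail. Atp5l, the g subunit, was at 13909, 17614 and 13825, then 11645, 15648 and 5341, then 17688, 24163 and 5690, with 0.43 (SE 0.21). Atp5md was at 7545, 8871 and 9993, then 6437, 6439 and 1278, then 12247, 13196 and 1704, with 0.73 (SE 0.23). None of these 5 genes passed the test. Atp5g1, also a small membrane subunit, was at -0.0077 (SE 0.225).

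The 3 genes Atp5g1, Atp5g2 and Atp5g3 code for the same mature c subunit of the rotating ring and differ in their import sequences. Per kilobase, Atp5g3 took 45.6%, 45.1% and 34.4% of their sum for control tail, 50.5%, 54.9% and 56.5% for knockout tail and 48.7%, 63.6% and 51.7% for knockout back. Every knockout library was above every control library. Atp5g1 took 32.9%, 31.8% and 49.9% for control tail, 29.2%, 30.7% and 27.4% for knockout tail and 32.1%, 25.6% and 24.1% for knockout back. Atp5g2 took the rest, 10.8% to 24.2% over the 9 libraries. The gene Atp5g3 itself differed from control tail by 0.39 (SE 0.22) in knockout tail and 0.49 (SE 0.22) in knockout back, with a limma adjusted p close to 1 in the first and of 0.20 in the second.

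**Figure D5:**
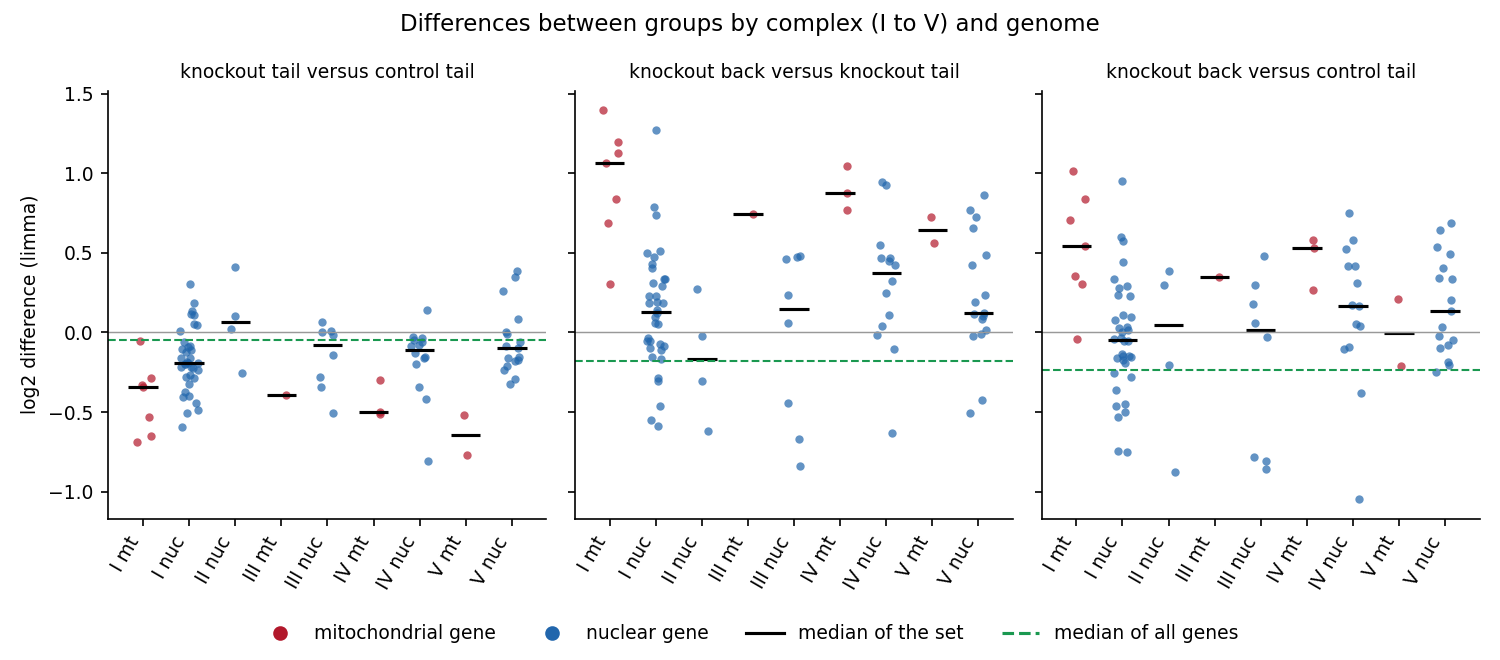
Log2 differences from limma for every member (points) in the 3 comparisons, by complex I to V and by genome (mt, mitochondrial; nuc, nuclear). Black lines are medians of each set, and the dashed line is the median of all genes in the table. Mitochondrial points lie below 0 in the left panel (-0.77 to -0.05) and above 0 in the middle panel (0.30 to 1.40), while nuclear points lie on both sides in all 3 panels.

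Other genes of mitochondrial function were counted from lists. In knockout back against knockout tail, 1 of 7 subunits and isoforms outside the symbol patterns passed: Atpif1, the inhibitor that blocks ATP hydrolysis by complex V, at 20844, 26671 and 26317 normalised counts for control tail, 17929, 16778 and 6172 for knockout tail and 32635, 35414 and 9405 for knockout back. Its log2 difference was 0.82 (SE 0.16, limma adjusted p = 0.0499), and in the model with the set of libraries the adjusted p was 0.088. In the group-only fit no gene of the other 8 lists passed in any of the 3 comparisons. These are 15 complex I, 10 complex II and III, 22 complex IV and 5 complex V assembly factors, 30 genes of mitochondrial DNA upkeep and transcription, 11 regulators of biogenesis, 17 genes of the tricarboxylic acid cycle and 78 mitochondrial ribosomal proteins. The ribosomal protein list had a median of -0.22 between the tail groups (15 of 78 positive) and the cycle 0.27 (10 of 17), against -0.05 for all genes. In the cycle the largest was Ogdh, an oxoglutarate dehydrogenase subunit, at 26742, 18093 and 24548, then 43091, 42865 and 64611, then 17222, 26540 and 37442. Its log2 difference between the tail groups was 0.81 (SE 0.20, adjusted p = 0.59), with no overlap in counts. Between back and tail, the genes of mitochondrial DNA upkeep and transcription had a median of -0.50 (9 of 30 positive). Without the 2 back libraries of many genes at 0 counts their median was -0.10. The medians of all genes in the same 2 fits were -0.18 and -0.06. Of the genes of that list, Elac2, which cuts mitochondrial tRNA ends, had 851, 1261 and 1352, then 2294, 837 and 3664, then 4, 0 and 2062 counts. Tfam, which packages and activates mitochondrial DNA, had 1131, 1948 and 1813, then 1166, 1108 and 2103, then 0, 272 and 1708. Genes at these low levels are often at 0 counts in the first and second knockout back libraries. The fit without those libraries leaves 1 back library, so it cannot decide whether such genes differ apart from that.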

How the data were processed

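The authors deposited 1 table of 16299 genes by 9 libraries with log2 values. The submitters' processing notes name DESeq2 and GRCm38. No aligner, counting program or strand setting is given in the sources used here. The labels' protocols give Trizol extraction, a SMART-Seq v4 kit and paired-end sequencing on a NovaSeq. The form of the values was worked out from the table: a variance-stabilising curve (7.98 at 0 counts), with the mean of 2 libraries set equal to that of the other 7 in every gene. Undoing both gave whole counts for 16296 genes within 0.004. Dct, Pmel and Tyrp1 were not resolved.

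limma 3.58.1 (R 4.3.3), with trend and robust moderation, was fitted to the deposited log2 values, with 3 groups, no other term and all 9 libraries. Benjamini-Hochberg adjustment was over all genes, at 0.05. No pseudocount and no count model was applied to these log2 values. Counts per kilobase use the principal transcript of GENCODE vM21, and the rule that named genes by level used merged exons. Named were all mitochondrial and complex II genes, in each other complex the 3 nuclear genes of highest and 2 of lowest level, isoform pairs, every member past the threshold, and otherwise the 4 of largest difference each way. From each other list the rule took genes past the threshold, or the 1 of largest difference each way, of which only some are given. Outside the rule, Cox4i1, the mitochondrial rRNAs and Tfam were chosen after their values were seen. The members and lists were chosen with earlier results of these data known. The recovery and the fit were checked on simulated data. Of the processing alternatives, all planned ones were run and 1 was added after seeing the data, and they are given in the closing section.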

Additional observations from a re-analysis of the deposited data

How the results depend on the processing

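Between knockout back and knockout tail, 2 members were called in the main analysis, among 244 genes in all. The count fell to 0 with the set of libraries in the model (71 genes in all) and with the shift put back (139 with a pseudocount of 1, 41 with 10). It was also 0 with limma-voom (168 genes), with CPM outside the mitochondrial genome (28) and with quantile normalisation (207). The count was 1 (Cox7c, among 196 genes) with limma-voom and the set term, which was chosen after seeing the data. It was 3 without trend and robust moderation (Cox7c, mt-Nd3 and Ndufb2, so without mt-Nd4, among 274 genes). With array weights it was 14 (1325 genes called in all), and without the third knockout tail and back libraries 12 (1637 genes). Leaving out 1 library gave 0 to 16, where 16 was without the third knockout back library (1972 genes) and 0 without any other (3 to 111 genes). Between knockout back and control tail the count was 0 in the main analysis and 1 with the set term (545 genes). It was also 1 with the shift put back and a pseudocount of 1 (338 genes) and with limma-voom (322). It was 3 with limma-voom and the set term (576 genes), 4 with array weights (903 genes) and 8 without the same 2 libraries (2371 genes). Leaving out 1 library gave 0 to 11, where 11 was again without the third knockout back library (2804 genes) and 0 without any other (0 to 87 genes). Between the tail groups 0 members were called in every alternative, where 0 to 10 genes were called in all. The nuclear median between the tail groups (-0.15) was -0.57 with the shift put back under either pseudocount, -0.54 with limma-voom and -0.56 with CPM, and -0.19 to -0.0451 when 1 library was left out. Between back and control tail (0.03) it was -0.37 with the shift put back under either pseudocount, -0.46 with limma-voom and -0.41 with CPM. Between back and tail (0.14) it was 0.0253 with limma-voom and 0.22 with array weights. The mitochondrial median between back and tail (0.84) was 0.50 without the 2 back libraries of many genes at 0 counts and 1.27 without the third knockout tail and back libraries. The median of all genes between back and control tail, -0.23 in the main analysis, lay between -1.12 and 0.03 over the settings, and the mitochondrial median between 0.13 and 0.59. The fit without those 2 back libraries leaves 1 back library, which is assumed to vary like the other groups. The cause of these changes was not tested. Recovered totals were 45.7 M counts or more a library, and the part of depth in the genes at 0 counts was not tested.

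With the replicate number as a block, 0 members were called in any of the comparisons, and 21 genes in all were called between back and tail in place of 244. The deviations of the third knockout tail and back libraries are tied by the removed shift, so their correlation (-0.70) says nothing on pairing. Deviations within a group sum to 0, so that tie also enters the other same-numbered pairs of knockout tail and back (-0.02 and -0.17). A pairing of tail and back libraries therefore cannot be judged from these values. Same-numbered pairs with control tail had correlations of -0.08 to 0.08, and the numbers were not taken as pairs.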
